A study of Rattus norvegicus with 35 samples.

Results

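The miR-30 family arms are the mature microRNAs (miRNAs) cut from the miR-30a to miR-30e hairpins. They were taken from the rat liver count table by name, as 10 of the 763 miRNAs it lists: miR-30a, b, c, d and e as 5p arms, and miR-30a, b, c-2, d and e as 3p arms. All 10 passed the filter on low counts that kept 328 miRNAs. The livers were those of 6-week-old male Sprague-Dawley rats given ketoconazole daily, an azole antifungal drug that can injure the liver. Low, middle and high doses were 10, 30 and 100 mg/kg per day. Controls received the vehicle, 0.5% methylcellulose, which all groups shared. Dosing lasted 3, 7 or 14 days and tissue was collected 24 h after the final dose. Each of the 12 groups had 3 libraries except control day 14, which had 2, so that 35 small RNA libraries were compared. The comparisons ask how the family changes with dose and with the length of dosing.

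A miRNA guides Argonaute proteins to messenger RNAs that pair with its seed, the bases from position 2 to 8 counted from the 5′ end, and those messengers are repressed. Each hairpin is cut by Dicer into a 5p and a 3p arm, of which usually one is kept in quantity and the other is mostly degraded. The miR-30 5p arms share a seed and therefore many predicted targets, while the 3p arms carry other seeds. In liver and other epithelia the family is known for restraining fibrotic and mesenchymal programmes, and miR-30a for repressing the autophagy gene Beclin 1.

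RefSeq sequences of the rat assembly GRCr8 were matched for 5 of the 10 arms. Those of miR-30b-5p, miR-30b-3p, miR-30d-5p, miR-30d-3p and miR-30e-3p are not shown. They are printed because the shared seed defines the family and because arms this alike can exchange reads in counting. The seed is in capitals.
miR-30a-5p: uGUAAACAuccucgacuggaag
miR-30e-5p: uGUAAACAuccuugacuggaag
miR-30c-5p: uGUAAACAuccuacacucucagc
miR-30a-3p: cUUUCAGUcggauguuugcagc
miR-30c-2-3p: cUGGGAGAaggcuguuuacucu
The 3 5p arms shown carry 1 seed, GUAAACA. The 3p arms shown carry UUUCAGU and UGGGAGA, which differ from it and from each other. Seeds of the arms not shown could not be compared. From position 1 at the 5′ end, miR-30a-5p and miR-30e-5p differ at 1 base, C13U. The arms miR-30a-5p and miR-30c-5p differ at 5 of 22 positions, C13A, G14C, G18C, G19U and A20C. How reads that fit more than one arm were assigned is not given in the sources used here, so the split of reads between miR-30a-5p and miR-30e-5p is uncertain. The 5 arms without a sequence here, miR-30d-5p among them, could not be compared. Whether they exchange reads with other arms is therefore not known either. In the GRCr8 gene table Mir30a neighbours Mir30c2, Mir30b neighbours Mir30d, and Mir30e neighbours Mir30c1, each pair with 0 annotated genes between them. Both Mir30e and Mir30c1 lie within Nfyc, the gene of a subunit of the transcription factor NF-Y.

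A pair of related miRNAs stood outside the 10. The other 3p arm, miR-30c-1-3p, has the seed of miR-30c-2-3p and averaged 19.9 CPM (counts scaled to the library total). The 5p arm of miR-384, which carries the 5p seed GUAAACA, had 5 counts in all, spread over 4 libraries.

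Library totals ran from 2665943 to 9665416 counts, with a median of 3758063. The labels number the replicates without stating that each is a separate rat, so p-values measure only the spread between these samples, which may be technical. The libraries stood in 2 clusters on the first principal component, which carried 46.2% of the variance in log2 CPM. One held the 14 control and low dose day 3 and 14 libraries. The other held all 18 middle and high dose libraries with the 3 of low dose day 7, 21 in all. No label names a batch, so every comparison of low dose day 7, the middle dose or the high dose with control is also a comparison between the clusters, and the 2 cannot be told apart. Comparisons of the high with the middle dose, of either with low dose day 7, and of low dose days 3 and 14 with control stay inside a cluster. Control day 7 replicates 2 and 3 lay farthest out, and results that rest on them are given with and without them. Leaving out both leaves a single control library of day 7. A call lost in that refit cannot be told apart from a loss of power.

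The 10 arms together took 5.28% to 9.41% of all counts in a library, with a mean of 7.26%. Their share lay between 5.28% and 6.20% in the 8 control libraries. It lay between 7.08% and 8.52% in the 9 middle dose libraries and between 7.94% and 9.41% in the 9 high dose libraries. The control range overlapped neither the middle nor the high dose range. The share was 5.69% to 6.95% in the 6 low dose day 3 and 14 libraries, a range that overlapped the controls. It was 7.56% to 7.94% in the 3 low dose day 7 libraries. Nearly all of these reads were 5p arms: the 5 3p arms together made up 0.086% to 0.20% of the counts. The arm miR-30a-5p supplied on average 49.5% of the family's reads, miR-30d-5p 18.3%, miR-30e-5p 17.4%, miR-30c-5p 7.51% and miR-30b-5p 5.53%. By mean CPM miR-30a-5p ranked 9 of the 763 miRNAs listed, miR-30d-5p 15, miR-30e-5p 16, miR-30c-5p 27 and miR-30b-5p 30. Among the 3p arms miR-30a-3p ranked 76, miR-30e-3p 79, miR-30d-3p 106, miR-30c-2-3p 140 and miR-30b-3p 189. The counts behind a value reached at least 87550 reads per library for miR-30a-5p but fell to 57 for miR-30b-3p, whose values are the least precise of the 10.

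The arm miR-30d-5p separated the clusters without overlap. On day 3 its level was 6454, 5797 and 8171 CPM in control, 5937, 9794 and 7427 CPM at the low dose, 16457, 18875 and 19358 CPM at the middle dose and 17593, 16327 and 17242 CPM at the high dose. On day 7 it was 7239, 5029 and 5263 CPM in control, 17587, 15811 and 18128 CPM at the low dose, 15392, 21106 and 17431 CPM at the middle dose and 15017, 19139 and 20979 CPM at the high dose. Every day 7 dosed library, the low dose included, thus lay above every control, whereas on day 3, 2 of the 3 low dose libraries lay among the controls and 1, at 9794 CPM, lay above all of them. On day 14 it was 7039 and 7714 CPM in control, 6553, 8050 and 7660 CPM at the low dose, 18358, 19490 and 21319 CPM at the middle dose and 22480, 25273 and 21740 CPM at the high dose. The 14 libraries of the first cluster reached at most 9794 CPM and the 21 of the second began at 15017 CPM. Averaged over the 3 days, the log2 fold change against control was 1.54 ± 0.10 (SE) at the high dose and 1.49 ± 0.10 at the middle dose, with edgeR adjusted p of 1.15e-14 and 1.9e-14. On day 7 the low dose gave 1.56 ± 0.16 (edgeR adjusted p = 1.39e-09), while on days 3 and 14 it gave 0.10 ± 0.12 (edgeR adjusted p = 0.939). Without control day 7 replicates 2 and 3 the low dose day 7 value was 1.11 (edgeR adjusted p = 0.000962). The high and middle doses differed by 0.06 ± 0.09 (edgeR adjusted p = 0.717). By mean level high dose day 14 came first, at 23164 ± 1860 CPM (SD, n = 3), and its libraries did not overlap those of middle dose day 14 in the next place, at 19722 ± 1490 CPM (SD, n = 3). Lower in that order, from middle dose day 14 to high dose day 3, neighbouring groups overlapped. This arm has been studied in pancreatic beta cells and the heart.

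**Figure D1:**
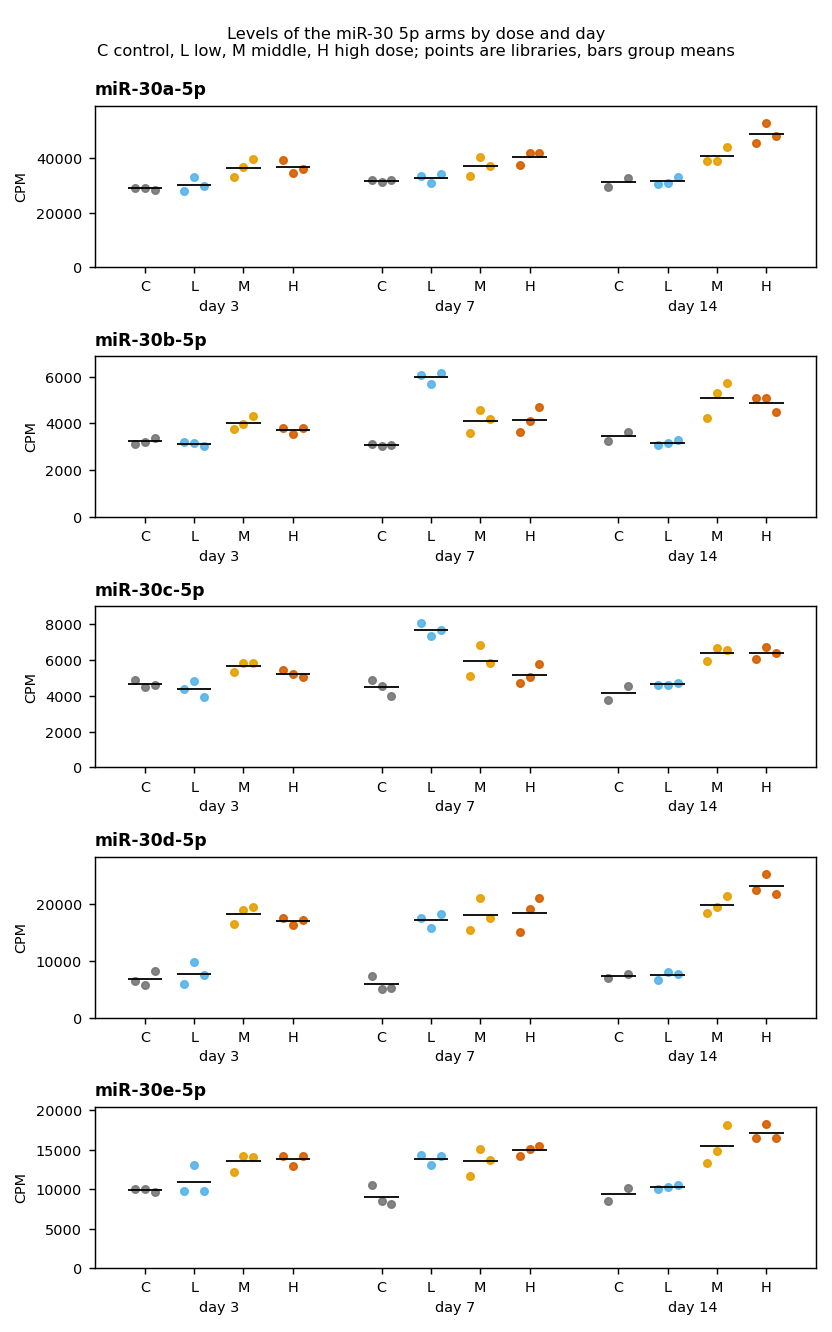
Level of each miR-30 5p arm, in CPM scaled by TMM, by dose group (C control, L low, M middle, H high) and day; points are single libraries and bars group means. In the miR-30d-5p panel the low dose sits with the controls on days 3 and 14, at no more than 9794 CPM, and with the middle and high doses on day 7, from 15017 CPM upward.

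The other 4 5p arms were also higher at the middle and high doses, by less. The arm miR-30e-5p ran from 8183 to 10500 CPM in control (median 9861), from 11710 CPM upward at the middle dose and from 12910 CPM at the high dose. Its dosed and control ranges did not overlap at either dose. The high dose log2 fold change was 0.69 ± 0.07 (edgeR adjusted p = 1.18e-09) and the middle dose value 0.58 ± 0.07 (edgeR adjusted p = 4.22e-08). The most abundant arm, miR-30a-5p, held 28460 to 32930 CPM in control (median 30520), 33180 to 44260 CPM at the middle dose (median 38950) and 34730 to 53160 CPM at the high dose (median 41990). Here too no middle or high dose library fell into the control range. It rose by 0.45 ± 0.06 at the high dose and 0.32 ± 0.06 at the middle dose (edgeR adjusted p = 2.59e-08 and 1.19e-05). The middle dose value was 0.20 without control day 14 replicate 1, 0.21 without control day 7 replicates 2 and 3, and 0.17 with library size alone, still called each time.

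The arm miR-30b-5p, which neighbours miR-30d in the genome and was linked with it to melanoma invasion, ran from 3024 to 3638 CPM in control (median 3165), from 3593 to 5743 CPM at the middle dose (median 4251) and from 3560 to 5090 CPM at the high dose (median 4114). At each dose the lowest library lay inside the control range. Its log2 fold changes were 0.38 ± 0.07 at the high and 0.43 ± 0.07 at the middle dose (edgeR adjusted p = 1.04e-05 and 1.53e-06). The arm miR-30c-5p, known in liver for repressing the lipid transfer protein gene Mttp, ran from 3730 to 4874 CPM in control (median 4528), from 5105 to 6799 CPM at the middle dose (median 5828) and from 4712 to 6730 CPM at the high dose (median 5415). Its middle dose libraries lay clear of the controls, while the lowest high dose library did not. It rose by 0.34 ± 0.07 at the high and 0.44 ± 0.07 at the middle dose (edgeR adjusted p = 4.3e-05 and 9.36e-07). With library size alone the middle dose values were 0.28 for miR-30b-5p and 0.29 for miR-30c-5p, both called.

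By count, 8 of the 10 arms passed the threshold of an edgeR adjusted p of 0.05 at the high dose, 7 higher and 1 lower. Of all 328 miRNAs, 62.8% passed there, 31.4% higher and 31.4% lower. At the middle dose 9 of 10 arms passed, all higher, where 61.9% of all miRNAs passed, 32% higher and 29.9% lower. Of the arms called, 7 of 8 and 9 of 9 were higher, where the calls over all miRNAs were split about evenly. The median log2 fold change of the 10 arms was 0.30 at the high and 0.43 at the middle dose, beside -0.04 and -0.02 over all miRNAs tested. Scaled by library size alone, the median of all miRNAs moved to -0.11 and -0.17, 43.6% and 41.3% of calls were higher in place of 50% and 51.7%, and 7 and 8 arms were called. All 5 5p arms stayed called at both doses under every setting run and with each library left out. With control day 7 replicates 2 and 3 left out, 7 arms stayed called at each dose.

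**Figure D2:**
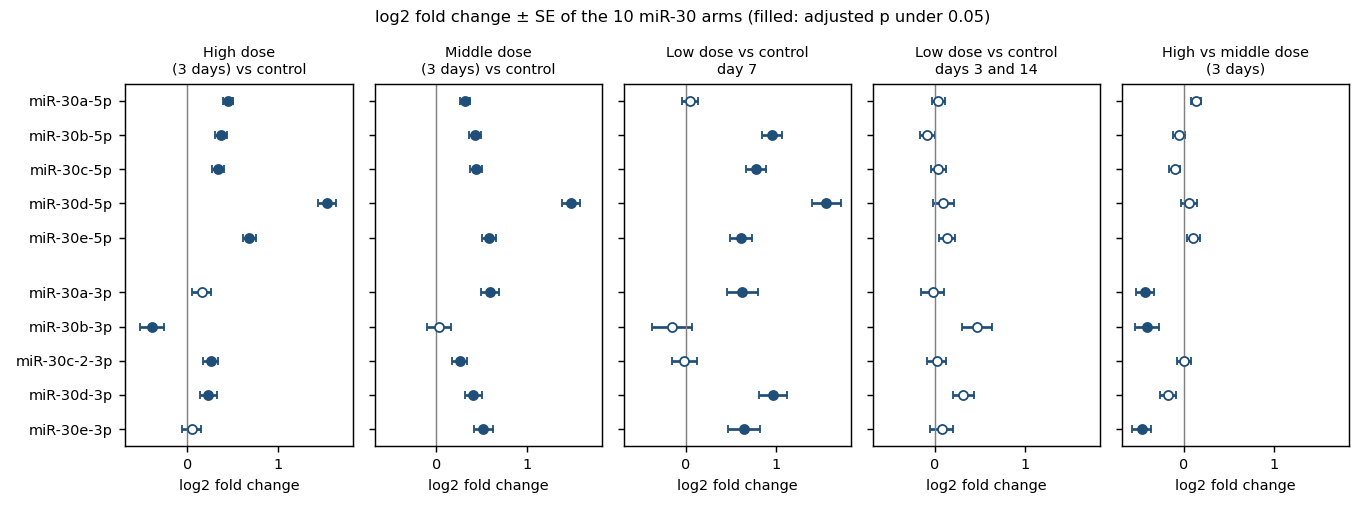
log2 fold change with its SE for each of the 10 arms in 5 comparisons; filled points passed an edgeR adjusted p of 0.05. The miR-30d-5p points stand near 1.5 in the first 3 panels and near 0 in the 2 right-hand panels, while the 3p arms of miR-30a, b and e lie left of 0 in the last.

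Because the arms moved by unequal amounts, the makeup of the 5p reads differed between groups, a measure that library scaling does not touch. The share of miR-30d-5p among the reads of the 5 5p arms had a median of 12.3% in control (range 9.56% to 15%), 22.8% at the middle dose (22.2% to 24%) and 22.4% at the high dose (20% to 23.6%). The share of miR-30a-5p was 55.6% in control (52.4% to 60.8%), 46.8% at the middle dose (45.9% to 48.3%) and 49% at the high dose (47.3% to 49.9%). For both arms the control range lay apart from both dosed ranges. The share of miR-30e-5p hardly moved, with medians of 17.5%, 17.2% and 17.6%, and that of miR-30c-5p was 8.46% in control, 7.37% at the middle dose and 6.48% at the high dose, with overlapping ranges between neighbouring doses.

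**Figure D3:**
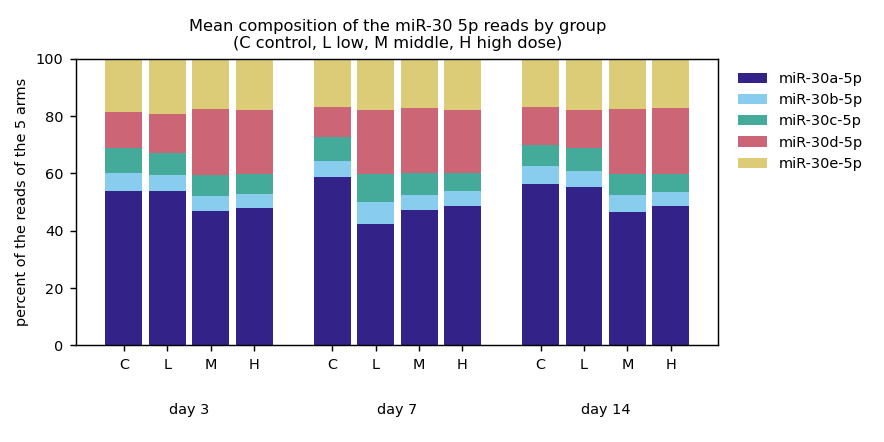
Mean percentage of each arm among the reads of the 5 miR-30 5p arms, by dose group (C control, L low, M middle, H high) and day; each bar sums to 100. The miR-30d-5p band is wider in low dose day 7 and in every middle and high dose group than in the controls, where its median was 12.3%.

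Low dose day 7 had a makeup of its own within the second cluster. The arm miR-30b-5p reached 6080, 5679 and 6147 CPM there against 3122, 3024 and 3093 CPM in control day 7, and miR-30c-5p 8025, 7347 and 7674 CPM against 4870, 4542 and 3984 CPM. These were the highest group means of both arms among the 12 groups, and for miR-30c-5p the 3 libraries lay above every library of high dose day 14, the next group. Against control day 7 the log2 fold change was 0.95 ± 0.11 for miR-30b-5p and 0.78 ± 0.11 for miR-30c-5p (edgeR adjusted p = 1.29e-08 and 4.29e-07). They made up 7.63% to 7.81% and 9.53% to 10.1% of the 5p reads, more than in any middle or high dose library (at most 6.2% and 7.79%). By contrast miR-30a-5p, at 33416, 30821 and 34355 CPM, stood near its control of 31924, 31490 and 31883 CPM (0.05 ± 0.09, edgeR adjusted p = 0.685). Its share of the 5p reads was the lowest of any group of libraries, 42.1% to 42.7%.

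In all, 7 of 10 arms were higher and none lower at low dose day 7, where 45.1% of all miRNAs were called, 26.5% higher and 18.6% lower. Besides miR-30d-5p, b-5p and c-5p these were miR-30e-5p (0.61 ± 0.12), miR-30d-3p (0.97 ± 0.16), miR-30a-3p (0.63 ± 0.17) and miR-30e-3p (0.64 ± 0.18), with edgeR adjusted p from 7.25e-06 to 0.00296. Without control day 7 replicates 2 and 3, 4 of the 7 stayed called, miR-30d-5p at 1.11, b-5p at 0.79, c-5p at 0.52 and d-3p at 0.66, and miR-30e-5p, a-3p and e-3p fell to 0.26, 0.14 and 0.23 (edgeR adjusted p = 0.372, 0.719 and 0.597). The arms miR-30b-3p and miR-30c-2-3p were at -0.15 ± 0.22 and -0.01 ± 0.14 with all libraries (edgeR adjusted p = 0.61 and 0.955). Leaving out either library alone ended the calls of miR-30a-3p and miR-30e-3p, at 0.40 to 0.44, and miR-30a-3p was also not called with only the libraries compared (0.55, edgeR adjusted p = 0.0516). Of the 6 white blood cell markers 3 were higher there (miR-142-5p, miR-150-5p and miR-342-3p), 0 lower and none at 0, and the summed level of all 6 was 4168 to 5270 CPM against 1553 to 3170 CPM over all controls. Their part in the result was not tested.

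Within day 7 the high dose differed from the low dose in 5 of 10 arms, where 24.1% of all miRNAs were called. The arms miR-30c-5p (-0.57 ± 0.11), miR-30b-5p (-0.52 ± 0.11), miR-30d-3p (-0.60 ± 0.16) and miR-30b-3p (-0.62 ± 0.23) were lower at the high dose and miR-30a-5p was higher (0.30 ± 0.09), with edgeR adjusted p of 0.00041, 0.00128, 0.00548, 0.0432 and 0.0165. The middle dose was lower than the low dose in 3 arms, miR-30b-5p (-0.54 ± 0.11), miR-30c-5p (-0.38 ± 0.11) and miR-30d-3p (-0.48 ± 0.16), with edgeR adjusted p of 0.00312, 0.0188 and 0.0449, where 10.1% of all miRNAs were called. These comparisons share the low dose libraries and moved with the scaling. With DESeq2's own fit 2 arms were called higher and 3 lower in the first, and 2 higher and 1 lower in the second, and of all calls 52.4% and 50% were higher in place of 29.1% and 21.2%. With DESeq2's size factors in edgeR, or without high dose day 7 replicate 2, 3 arms were called in the first, and without low dose day 7 replicate 3, or with only the libraries compared, 1 arm was called in the second. Without the low-count filter 1 arm was called in each.

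On days 3 and 14 of the low dose 0 of the 10 arms were called by edgeR, as were 0% of all miRNAs, and DESeq2 also called 0. At an unadjusted p under 0.05 there were 16 miRNAs, 2 of them among the arms. Neither day called any miRNA alone, with 0% on day 3 and 0% on day 14. The 5p arms lay between -0.08 and 0.13 on the log2 scale. The largest value of the 10 was 0.47 ± 0.16 for miR-30b-3p (edgeR adjusted p = 0.825), whose day 14 libraries held 39.6, 49.9 and 54.9 CPM against 31.8 and 30.0 CPM in control. These 3 libraries lay above every control library of any day (at most 36.33 CPM). The other arm with an unadjusted p under 0.05 was miR-30d-3p, at 0.32 ± 0.12 (edgeR adjusted p = 0.825), with 190.2 to 277.2 CPM against 133.9 to 217.6 CPM over all controls. The 3p arms of miR-30a, c-2 and e were at -0.02, 0.02 and 0.08.

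Tested against each other, the low dose effect on day 7 exceeded that on days 3 and 14 in 7 arms, where 37.5% of all miRNAs differed. Day 7 was set apart because its low dose libraries were already known to stand apart in these data. The p-values of this test do not account for that choice. The difference was 1.46 ± 0.20 for miR-30d-5p, 1.04 ± 0.14 for miR-30b-5p and 0.74 ± 0.14 for miR-30c-5p (edgeR adjusted p = 4.15e-07, 2.99e-07 and 5.15e-05). Without control day 7 replicates 2 and 3, 2 arms stayed called, miR-30b-5p at 0.91 and miR-30d-5p at 1.04, and miR-30c-5p was at 0.52 (edgeR adjusted p = 0.0506). Opposite in sign was miR-30b-3p, at -0.61 ± 0.28 (edgeR adjusted p = 0.0797), which DESeq2 called lower (adjusted p = 0.0271).

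Among the 3p arms, those of miR-30a, b and e differed between the high and middle doses and those of miR-30c-2 and d were not shown to. The arm miR-30a-3p held 296.7 to 447.8 CPM in control (median 428.6), 456.3 to 871.9 CPM at the middle dose (median 572.5) and 392.8 to 497.7 CPM at the high dose (median 441.1). Its middle dose libraries all lay above the controls, and its high dose libraries overlapped both. The log2 fold change was 0.59 ± 0.10 at the middle dose (edgeR adjusted p = 1.14e-05) and 0.16 ± 0.10 at the high dose (edgeR adjusted p = 0.173). The arm miR-30e-3p held 305 to 450.9 CPM in control (median 423.1), 427.8 to 794.7 CPM at the middle dose (median 566.4) and 359.4 to 453.2 CPM at the high dose (median 413.3), so that its middle dose libraries overlapped the controls. It stood at 431.6, 348.9 and 430.1 CPM in control day 3, 622.1, 427.8 and 779.1 CPM at the middle dose and 386.8, 404.1 and 416.2 CPM at the high dose of that day. On day 7 its control libraries held 416.0, 314.4 and 305.0 CPM, the middle dose 794.7, 497.2 and 571.6 CPM and the high dose 412.8, 359.4 and 447.6 CPM. Every middle dose library of day 7 exceeded every high dose library of that day. On day 14 control held 450.9 and 448.9 CPM, the middle dose 458.5, 566.4 and 438.0 CPM and the high dose 414.6, 413.3 and 453.2 CPM, and the middle dose change was 0.12 ± 0.20 (edgeR adjusted p = 0.738). Over the 3 days miR-30e-3p changed by 0.52 ± 0.11 at the middle dose (edgeR adjusted p = 9.36e-05) and by 0.05 ± 0.11 at the high dose (edgeR adjusted p = 0.696).

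The arm miR-30b-3p, the rarest, held 20.96 to 36.33 CPM in control (median 28.88), 20.58 to 44.62 CPM at the middle dose (median 29.15) and 15.96 to 31.31 CPM at the high dose (median 21.83). It was the 1 arm that fell at the high dose, by 0.39 ± 0.13 on the log2 scale (edgeR adjusted p = 0.0132), although the ranges overlapped. At the middle dose it was at 0.02 ± 0.13 (edgeR adjusted p = 0.892). The call ended without the low-count filter (edgeR adjusted p = 0.0696) and with days 3 and 14 only, at -0.19 (edgeR adjusted p = 0.351). The arm miR-30d-3p ran from 133.9 to 217.6 CPM in control (median 175.7), with medians of 236.2 CPM at the middle and 198.1 CPM at the high dose. Its log2 fold changes were 0.41 ± 0.09 and 0.23 ± 0.09 (edgeR adjusted p = 0.000421 and 0.0329). The high dose call ended with library size alone (0.15), with a stricter filter (0.19) and with days 3 and 14 only (0.16). It also ended, at 0.15 to 0.22, without control day 3 replicate 2, day 7 replicate 2 or 3 or day 14 replicate 1, and without high dose day 3 replicate 3, day 7 replicate 3 or day 14 replicate 1 or 2. Without both outlying day 7 controls it was 0.12, and the middle dose value was 0.25 (edgeR adjusted p = 0.343 and 0.0514).

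The arm miR-30c-2-3p ran from 65.52 to 82.38 CPM in control (median 71.98), with medians of 91.6 CPM at the middle and 83.25 CPM at the high dose. It changed by 0.26 ± 0.08 at both doses (edgeR adjusted p = 0.0078 and 0.0068). Without control day 14 replicate 1 the values were 0.13 and 0.16 and neither was called. The middle dose call also ended without control day 3 replicate 2 (0.17), with library size alone (0.11), with days 3 and 14 only (0.23) and without both outlying day 7 controls (0.16). Its highest group was high dose day 14, at 104.9, 109.9 and 101.1 CPM, which did not overlap middle dose day 14 in the next place, at 96.3, 92.4 and 92.8 CPM.

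**Figure D4:**
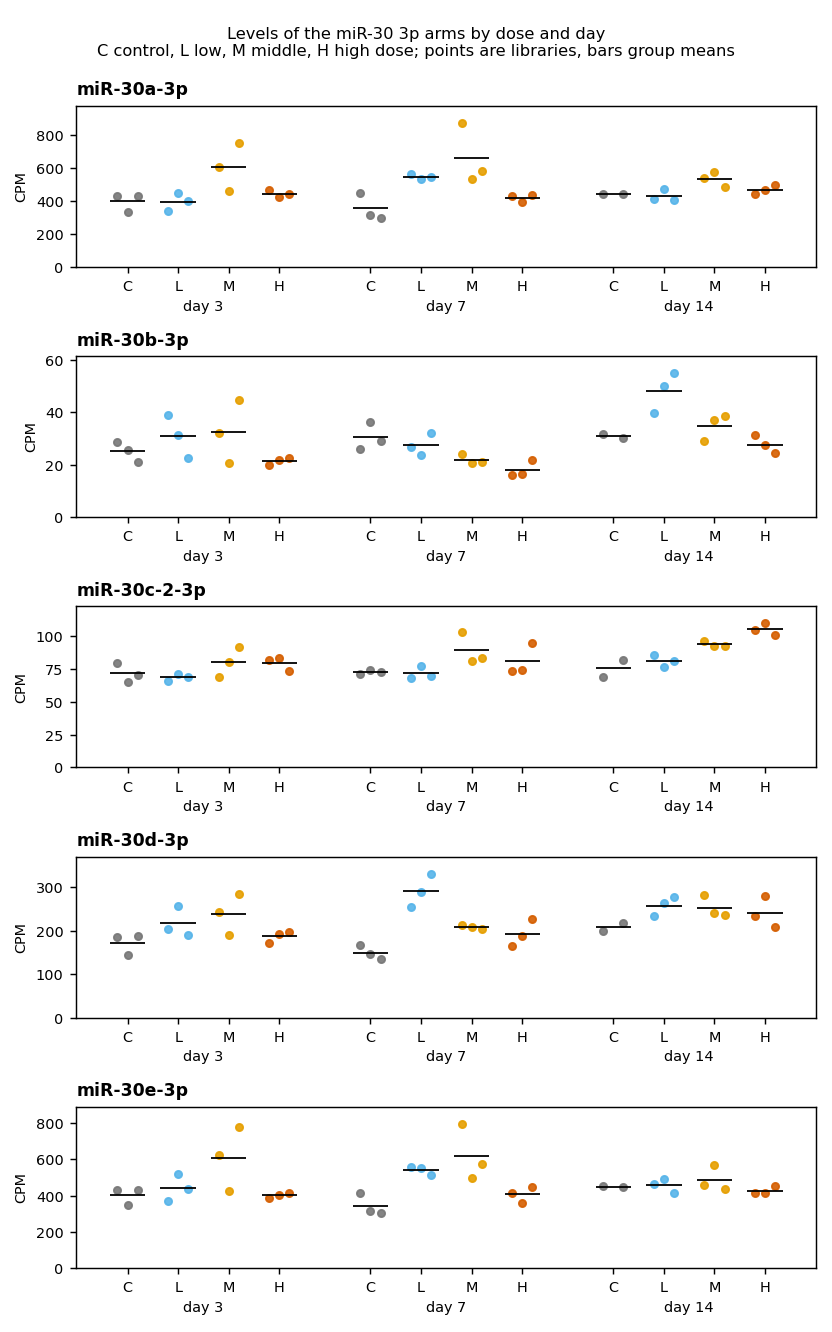
Level of each miR-30 3p arm, in CPM scaled by TMM, by dose group (C control, L low, M middle, H high) and day; points are single libraries and bars group means. For miR-30a-3p and miR-30e-3p the middle dose mean stands above the high dose mean on day 3 and day 7, and miR-30b-3p is highest in low dose day 14.

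Between the high and the middle dose, inside 1 cluster, 3 of 10 arms were called, all lower at the high dose and all 3p arms. Of all miRNAs 17.4% were called, 7.93% higher and 9.45% lower. Higher calls were 45.6% of all calls, and 68.1% with library size alone. They were miR-30e-3p (-0.47 ± 0.10), miR-30a-3p (-0.43 ± 0.10) and miR-30b-3p (-0.41 ± 0.13), with edgeR adjusted p of 0.00263, 0.00382 and 0.0247. The arms miR-30d-3p and miR-30c-2-3p were at -0.18 ± 0.09 and 0.0032 ± 0.08 (edgeR adjusted p = 0.164 and 0.993). The 5 5p arms lay between -0.10 and 0.13, and 0 were called by edgeR, with 1 at an unadjusted p under 0.05. That was miR-30a-5p, at 0.13 ± 0.05 (edgeR adjusted p = 0.0742), which DESeq2 called (adjusted p = 0.0237). It was also called, at 0.16 to 0.18, without middle dose day 3 replicate 3, day 7 replicate 2 or day 14 replicate 3, or without high dose day 3 or day 14 replicate 1. With library size alone miR-30a-5p and miR-30e-5p were both called, at 0.20 and 0.18. With days 3 and 14 only, 1 of the 3 arms stayed called, and miR-30a-3p was at -0.32 (edgeR adjusted p = 0.0828). The call of miR-30b-3p ended without a low-count filter (-0.36) and, at -0.30 to -0.38, without middle dose day 3 replicate 3, day 7 replicate 1 or day 14 replicate 2, or high dose day 3 replicate 1, day 7 replicate 1 or day 14 replicate 3.

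The ratio of 5p to 3p reads of a hairpin is measured within a library and needs no scaling between libraries. In miR-30d it was 34.98, 39.94 and 43.24 5p reads per 3p read in control day 3, 43.33, 34.48 and 39.25 in control day 7 and 35.32 and 35.44 in control day 14. At the high dose it was 101.9, 84.72 and 86.98 on day 3, 90.63, 102.4 and 92.54 on day 7 and 95.86, 90.65 and 103.9 on day 14. Each high dose library was thus far above each control library. The middle dose ran from 64.9 to 101 (median 81.2), and the low dose from 54.8 to 68.8 on day 7 and from 27.6 to 39 on days 3 and 14. The log2 ratio changed by 1.32 ± 0.09 at the high dose, 1.09 ± 0.09 at the middle dose and 0.61 ± 0.16 at low dose day 7 (limma adjusted p = 7.32e-13, 7.32e-11 and 0.00204). Without control day 7 replicates 2 and 3 the last was 0.45 (limma adjusted p = 0.159).

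The miR-30b hairpin gave 82.8 to 161 5p reads per 3p read in control (median 114), 96.7 to 221 at the middle dose (median 149), 162 to 251 at the high dose (median 185) and 191 to 238 at low dose day 7. The high dose libraries all lay above the controls and the middle dose overlapped both. The log2 ratio changed by 0.76 ± 0.12 at the high dose, 0.42 ± 0.12 at the middle dose and 1.10 ± 0.21 at low dose day 7 (limma adjusted p = 4.93e-06, 0.00463 and 6.96e-05). With days 3 and 14 only the middle dose value was 0.19 (limma adjusted p = 0.306).

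The miR-30e ratio ran from 18.9 to 28.7 in control (median 24.3), 14.7 to 41.3 at the middle dose (median 26.1) and 31.9 to 44.1 at the high dose (median 36.4). It was higher at the high dose (0.63 ± 0.13, limma adjusted p = 7.91e-05) and was not called at the middle dose (0.08 ± 0.13, limma adjusted p = 0.63). The miR-30a ratio was 72.7 in control, 68.4 at the middle dose and 96.7 at the high dose by median, with values of -0.27 ± 0.11 and 0.28 ± 0.11 (limma adjusted p = 0.0416 and 0.0385). Both calls ended in limma without trend and robust fitting (adjusted p = 0.0521 and 0.0504). The high dose call also ended, at 0.22 to 0.30, without control day 3 replicate 1 or 3, day 7 replicate 1 or either of day 14, and without any of high dose day 3, day 7 replicate 2 or 3 or day 14 replicate 2. The middle dose call ended, at -0.17 to -0.29, without control day 3 replicate 2, day 7 replicate 2 or 3 or either of day 14, and without middle dose day 3 replicate 1 or 3, day 7 replicate 1 (-0.17) or day 14 replicate 1 or 2. It was -0.07 with days 3 and 14 only. At low dose day 7 the miR-30a ratio was lower, by -0.60 ± 0.19 (limma adjusted p = 0.00977), and without control day 7 replicate 3 it was -0.49 (limma adjusted p = 0.0679), and -0.24 with replicate 2 left out too. The ratio of miR-30c-5p to miR-30c-2-3p, a pair in which the 5p reads can also come from the miR-30c-1 hairpin, was 94.4 to 117 at low dose day 7 against at most 68.4 in control. It changed by 0.81 ± 0.14 there (limma adjusted p = 2.78e-05) and by 0.08 ± 0.08 at the high dose (limma adjusted p = 0.44). The 3p arm of the miR-30c-1 hairpin, miR-30c-1-3p, was higher at low dose day 7, by 0.81 ± 0.26 (edgeR adjusted p = 0.0101). There miR-30c-2-3p was at -0.01 ± 0.14. Which hairpin the added miR-30c-5p reads came from was not tested, so this ratio need not describe the miR-30c-2 hairpin alone.

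Among the 97 hairpins with both arms tested, the ratio changed in 59.8% at the high dose, 66% at the middle dose, 51.5% at low dose day 7 and 24.7% between the high and middle doses. Of the 5 miR-30 hairpins 4, 3, 4 and 3 were called, to be read beside those backgrounds. Without the outlying day 7 controls the first 3 counts were 4, 2 and 2. On days 3 and 14 of the low dose 0% of the hairpins were called by limma, although miR-30b was at -0.53 ± 0.15 (unadjusted p = 0.00191 and adjusted p = 0.0928 in limma, over 97 hairpins). It was called without low dose day 3 replicate 3, at -0.62. It was also called under a filter of at least 10 CPM in 3 libraries, where the value stayed at -0.53 (limma adjusted p = 0.0438). Between the high and middle doses the ratio was higher at the high dose in miR-30e (0.56 ± 0.12), miR-30a (0.55 ± 0.11) and miR-30b (0.34 ± 0.12), with limma adjusted p of 0.00195, 0.00105 and 0.0366. The miR-30b call ended with the replicate number as a block (limma adjusted p = 0.0606), with days 3 and 14 only (0.35) and, at 0.27 to 0.34, without middle dose day 3 replicate 1 or 3, day 7 replicate 1 or day 14 replicate 1 or 2, or high dose day 3 replicate 1 or 3, day 7 replicate 2 or day 14 replicate 2 or 3. The miR-30d ratio was 0.23 ± 0.09 (limma adjusted p = 0.0571), and was called, at 0.27 to 0.29, without middle dose day 3 replicate 2, day 7 replicate 2 or day 14 replicate 3.

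**Figure D5:**
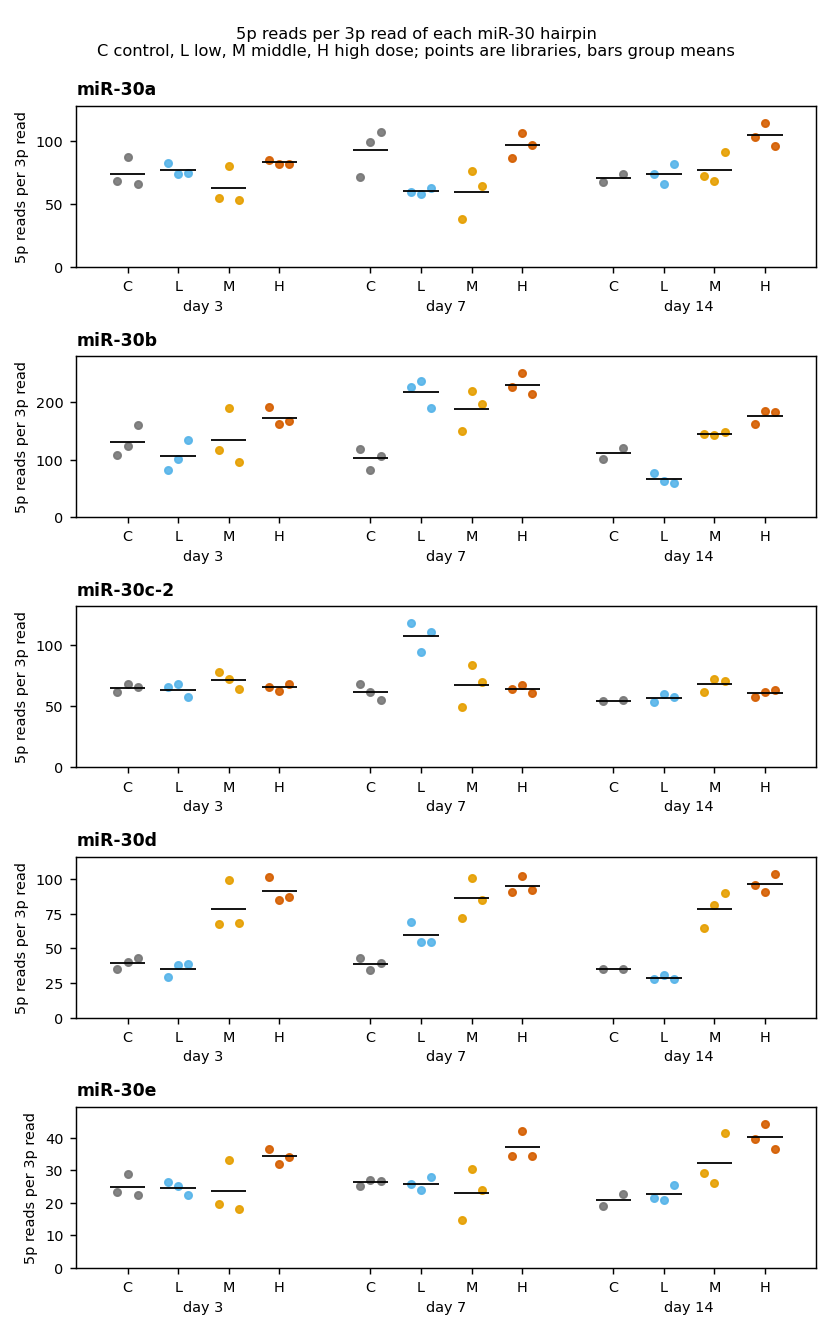
5p reads per 3p read of each miR-30 hairpin (miR-30c-5p set against miR-30c-2-3p), by dose group (C control, L low, M middle, H high) and day; points are single libraries and bars group means. For miR-30d the 9 high dose libraries sit between 84.7 and 104, above the 8 controls between 34.5 and 43.3.

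Taken by day, 3 of 10 arms were called at the high dose on day 3, 6 on day 7 and 6 on day 14, where 35.1%, 51.8% and 35.4% of all miRNAs were called. At the middle dose 8, 8 and 5 arms were called, where the backgrounds were 38.1%, 50.9% and 28.4%. With all libraries in the fit, miR-30d-5p, miR-30e-5p and miR-30a-5p were called on each day at both doses. At the high dose miR-30d-5p stood at 1.32 ± 0.16, 1.65 ± 0.16 and 1.65 ± 0.19 on days 3, 7 and 14, and miR-30a-5p at 0.35 ± 0.09, 0.35 ± 0.09 and 0.65 ± 0.10. Tested as a difference, the high dose effect on day 7 or day 14 was not shown to differ from day 3 for any arm, with 0% and 0% of all miRNAs called by edgeR. At an unadjusted p under 0.05 there were 36 and 24 miRNAs, and 0 and 3 arms. The day 7 counts fell at both doses without control day 7 replicates 2 and 3, and the day 14 counts without control day 14 replicate 1. Each of these refits leaves a single control library of that day, so lost calls and lost power cannot be told apart. At middle dose day 3 the count fell to 3 without control day 3 replicate 2, without middle dose day 3 replicate 3 or with only the libraries compared, and to 5 with library size alone. With only the libraries compared the middle dose counts of days 7 and 14 were 4 and 3. Between control days, 0 arms were called on day 7 against day 3 (1.52% of all miRNAs) and 0 on day 14 against day 3 (0%), by edgeR. No arm reached an unadjusted p under 0.05 on day 7, where 71 miRNAs did, or on day 14, where 29 did.

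Within each cluster the strongest likeness among the arms was between miR-30a-3p and miR-30e-3p, from hairpins that are not neighbours. Their Pearson r of log2 CPM was 0.93 over the 14 libraries of the first cluster and 0.96 over the 21 of the second. No sequence of miR-30e-3p was matched, and a part of shared reads in this likeness was not tested. For miR-30d-5p and miR-30e-5p r was 0.75 and 0.87. Over all 35 libraries r was 0.945 for miR-30d-5p and miR-30e-5p and 0.94 for miR-30a-3p and miR-30e-3p. Other pairs were alike in the second cluster alone, with r of 0.08 and 0.91 for miR-30b-5p and miR-30c-5p and 0.30 and 0.87 for miR-30a-5p and miR-30e-5p. Between the 2 arms of 1 hairpin r was 0.15 and -0.36 for miR-30a, -0.04 and 0.49 for miR-30b, 0.75 and 0.24 for miR-30d and 0.67 and -0.51 for miR-30e. The neighbours miR-30b-5p and miR-30d-5p had r of 0.40 and 0.43, and miR-30b-3p and miR-30d-3p 0.58 and 0.73. All arms are measured in the same libraries, with the same depths, scaling and dose groups, so these values only describe the levels.

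Outside the family, the likeness was ranked by Pearson r of log2 CPM over the 35 libraries among 231 miRNAs. For miR-30d-5p the 3 nearest were miR-22-5p, miR-128-3p and miR-186-5p, with r of 0.76, 0.82 and 0.94 in the first cluster and 0.57, 0.48 and 0.21 in the second. For miR-30a-5p they were miR-99a-3p, miR-203a-3p and miR-378a-3p, with r of 0.44, -0.12 and 0.68 in the first and 0.74, 0.78 and 0.78 in the second. The nearest to both miR-30a-3p and miR-30e-3p was miR-125a-5p, with r of 0.87 and 0.89 in the first and 0.80 and 0.82 in the second. The nearest to miR-30e-5p was miR-203a-3p, to miR-30b-5p miR-22-3p, to miR-30c-5p miR-193a-3p, to miR-30d-3p miR-26a-5p, to miR-30c-2-3p miR-143-3p and to miR-30b-3p miR-122-5p, with r between 0.08 (miR-30c-2-3p) and 0.72 (miR-30d-3p) in the first cluster and between 0.65 and 0.82 in the second.

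Beside the family, 13 miRNAs abundant in hepatocytes gave 5 higher and 5 lower at the high dose and 5 higher and 8 lower at the middle dose, with medians of -0.02 and -0.24. At low dose day 7 they gave 4 higher and 6 lower, and at low dose days 3 and 14 none was called. Of its most abundant members miR-22-3p was higher at the high dose by 0.46 ± 0.06 and miR-192-5p lower at -0.19 ± 0.06 (edgeR adjusted p = 1.78e-07 and 0.00478). Of 10 miRNAs linked to fibrosis 4 were higher and 3 lower at the high dose, 4 and 2 at the middle dose and 4 and 1 at low dose day 7. Its 4 most abundant members were at 0.20 ± 0.12 (miR-29a-3p), -0.04 ± 0.10 (miR-199a-3p), 0.40 ± 0.11 (miR-29c-3p) and -0.34 ± 0.13 (miR-21-3p) at the high dose, with edgeR adjusted p of 0.145, 0.745, 0.00285 and 0.019. The remaining miR-29 member, miR-29b-3p, chosen after its value was seen, was lower, at -0.57 ± 0.10 (edgeR adjusted p = 1.76e-05). The miR-29 family is known for repressing collagen genes. The high minus middle comparison gave 2 higher and 2 lower in the first list and 1 higher and 1 lower in the second.

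The markers chosen for hepatocytes and endothelium differed between the clusters. All 4 hepatocyte markers (both arms of miR-122, miR-192-5p and miR-194-5p) were lower at the high and middle doses and 3 at low dose day 7, and none was at 0. These 4 are part of the 13 hepatocyte-abundant miRNAs above. That list went both ways, with 5 higher and 5 lower at the high dose and 5 higher and 8 lower at the middle dose. The summed level of the 4 markers was 192300 to 284900 CPM in control, 164300 to 282900 CPM at the middle and 174900 to 237000 CPM at the high dose. Both endothelial markers, the arms of miR-126a, were lower in the same 3 comparisons, with sums of 28710 to 37850 CPM in control, 20380 to 25150 CPM at the middle and 18910 to 22700 CPM at the high dose. The other lists had calls in mixed directions. White blood cell markers gave 1 higher and 3 lower of 6 at the high dose, 2 and 1 at the middle dose and 3 and 0 at low dose day 7. Stellate and smooth muscle markers gave 2 and 3 of 7, 3 and 1, and 2 and 1. Red blood cell markers gave 1 and 1 of 4, 1 and 1, and 0 and 0, and bile duct markers 1 and 2 of 5, 0 and 2, and 0 and 2. None of these markers was at 0 in all libraries. Their part in the changes of the miR-30 arms was not tested. In bulk liver, fewer cells of a type and less of a miRNA per cell cannot be told apart.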

How the data were processed

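Small RNA was sequenced from 35 rat liver samples. The authors deposited raw read counts per mature miRNA, with no normalization, and per the submitters' processing notes used the build rn6; for the aligner, the counting program and the handling of reads that fit several miRNAs, the method is not given in the sources used here. Middle dose day 14 replicates 2 and 3 had a pair of count columns each, which were summed. Replicates differed by more than counting noise: chi-square per degree of freedom was at least 34.8 in all 34 pairs. Of 763 miRNAs 151 had 0 counts throughout, and filterByExpr (minimum count 10, minimum total 15) kept 328.

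TMM scaling was used, and edgeR 4.0.16 under R 4.3.3 fitted a mean for each group to the 35 libraries (robust quasi-likelihood test, 23 residual degrees of freedom). Benjamini-Hochberg adjustment ran over all miRNAs tested in each comparison, with a threshold of 0.05. SEs were computed as |log2 fold change| over √F. Arm ratios, log2((5p + 0.5)/(3p + 0.5)), were fitted in limma 3.58.1 over 97 hairpins. CPM uses TMM-scaled library sizes, and log2 CPM a prior count of 2. Sequences are RefSeq's, GRCr8; no coordinates are given because the counts rest on another build. Alternatives were DESeq2 1.42.0, its size factors, library size alone, other low-count filters, the libraries compared only, a replicate block, another offset, and each library left out in turn. Averages over days 3 and 14 only, leaving out control day 7 replicates 2 and 3 together and either run alone were added after seeing the data. The steps were tested on simulated data. All 10 arms are reported in the high and middle dose averages, low dose day 7, low dose days 3 and 14 and high minus middle, and by count with examples elsewhere; miRNAs outside the family were named by likeness or by abundance within a list. Members, lists and comparisons were chosen with earlier results of these data known.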

Additional observations from a re-analysis of the deposited data

Results flagged for a closer look

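The low dose effect differed between days in 7 arms, by the test of the difference itself (edgeR, day 7 minus the mean of days 3 and 14). This split of the days was chosen with earlier results of these data known. The difference was 1.46 for miR-30d-5p, 1.04 for miR-30b-5p, 0.74 for miR-30c-5p, 0.65 for miR-30d-3p, 0.65 for miR-30a-3p, 0.57 for miR-30e-3p and 0.48 for miR-30e-5p on the log2 scale. Opposite in sign was miR-30b-3p, at -0.61 (edgeR adjusted p = 0.0797). It was called lower with DESeq2 (-0.71), its size factors (-0.71), library size alone (-0.66) and the stricter filter (-0.68), and, at -0.71 to -0.78, without control day 7 replicate 1, control day 14 replicate 1, low dose day 3 replicate 3 or any low dose day 14 library. Low dose day 7 libraries lay in the second cluster and those of days 3 and 14 in the first, so day and cluster cannot be told apart. Without control day 7 replicate 2, or without replicate 3, the count fell to 3 arms: miR-30d-3p was at 0.51 and 0.49, miR-30a-3p at 0.44 and 0.44, miR-30e-3p at 0.38 and 0.39 and miR-30e-5p at 0.32 and 0.33, none of them called. The call of miR-30a-3p also ended without control day 3 replicate 3, control day 14 replicate 1 or any low dose day 14 library (0.47 to 0.56), and that of miR-30e-5p without control day 14 replicate 2 or any low dose day 14 library (0.34 to 0.42). The call of miR-30e-3p ended without any single library of these groups other than control day 7 replicate 1 (0.38 to 0.60). With control day 7 replicates 2 and 3 both left out miR-30c-5p was at 0.52 and not called. With DESeq2's size factors miR-30a-3p, miR-30e-3p and miR-30e-5p were at 0.54, 0.46 and 0.38 and not called. The call of miR-30e-3p also ended with library size alone (0.52), without the low-count filter (0.58) and with the stricter filter (0.49). Groups held 2 or 3 libraries, too few to look for single outlying libraries.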

How the results depend on the processing

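Over the 85 arm and hairpin results, 1657 of 1890 refits kept the direction and the side of the threshold, 124 lost a call, 30 gained one and 79 changed sign; no result that changed sign was called, before or after. Of 48 called results, 27 were called in every refit. At low dose day 7, 7 arms fell to 4 without control day 7 replicates 2 and 3. Between the high and middle doses, 3 arms became 5 with library size alone and 1 with days 3 and 14 only. No pairing by replicate number was seen, with a median r of deviations of -0.01 over 51 same-numbered pairs and -0.007 over 102 others. Deviations sum to 0 within a group, which ties these values to each other, so pairing is not excluded. The replicate block left the arm counts at 8, 9, 7, 0 and 3 in the 5 main comparisons. It ended the call of the miR-30b ratio between high and middle doses (0.34, limma adjusted p = 0.0606). With the block the counts went from 6 to 5 at high dose day 7, from 8 to 7 at middle dose days 3 and 7, from 5 to 4 for high minus low and from 3 to 2 for middle minus low on day 7. Calls that library size alone or a left-out library ended stand beside the results. Depth limits miR-30b-3p most, at 57 to 313 reads per library; counting error alone is covered there.

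Values that changed sign were near 0. For miR-30a-5p at low dose day 7 they were -0.042 with DESeq2 or its size factors, -0.0008 with library size alone, -0.014 with the stricter filter, -0.019 with only the libraries compared and -0.10 without both day 7 controls (each library left out, -0.086 to 0.096). Its low dose difference between days gave -0.090, -0.04, -0.059, -0.016 and -0.10 in the same order (-0.13 to 0.056). For miR-30e-3p at the high dose they were -0.027 with library size alone, -0.040 with days 3 and 14 and -0.090 without both controls (-0.0062 to 0.096), and for miR-30a-3p -0.0044 without both. For miR-30b-3p at the middle dose they were -0.13 with library size alone and -0.010 without both (-0.091 to 0.099). Between high and middle doses miR-30b-5p was 0.016 with library size alone, and miR-30c-2-3p -0.028 with the stricter filter and -0.0026 with run 2 alone (-0.015 to 0.067). Without a filter, low dose days 3 and 14 gave -0.0098 for miR-30a-5p (-0.049 to 0.066), -0.031 for miR-30c-2-3p (-0.089 to 0.071) and -0.011 for miR-30c-5p (-0.075 to 0.095). The miR-30e ratio at low dose day 7 was 0.026 without both controls (-0.093 to 0.019). Only single libraries changed the sign of miR-30a-3p (-0.12 to 0.026), miR-30e-3p (-0.014 to 0.13) and the ratios of miR-30c-2 (-0.0082 to 0.053) and miR-30e (-0.0071 to 0.12) at low dose days 3 and 14, of miR-30c-2-3p at low dose day 7 (-0.13 to 0.021) and of the miR-30e ratio at the middle dose (-0.012 to 0.18). The causes were not tested.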
